A study of Mus musculus with 9 samples.

Results

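The RNAs described here are the small RNA fragments of 5 nuclear-encoded transfer RNA (tRNA) species of the mouse, tRNA-Lys-CTT, tRNA-Lys-TTT, tRNA-Val-AAC, tRNA-Val-CAC and tRNA-Val-TAC, each named by its amino acid and the anticodon of its gene. They were taken by name from the mature nuclear tRNA classes of the annotation, with genome-matched and unmatched reads added together, and each species was divided into 4 parts: reads from its 5′ end, reads from its 3′ end without CCA, reads that end in CCA, and the remainder. This gave 20 parts of 5 species, out of 200 parts of 51 nuclear tRNA species with a read and 994 small RNA features in all. All 20 parts passed the filter on low counts, among 520 features tested.

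The small RNAs came from atrial appendages of C57BL/6 mice in 3 groups of 3 libraries. Young mice were 5 months old and had no curcumin, and old mice were 18 months old and had no curcumin. Curcumin-treated mice were also 18 months old and had received 100 mg/kg curcumin daily in non-fat skim milk from 12 to 18 months of age. The design text speaks of 3 mice per group and does not say whether the young and old controls were given the milk without curcumin. Curcumin, a polyphenol of turmeric, was therefore compared at 1 dose and 1 age, and its vehicle cannot be told apart from it. The libraries were made by PANDORA-seq, in which RNA is treated with the demethylase AlkB, which removes some of the methyl groups that stop reverse transcriptase, and with T4 polynucleotide kinase, which repairs RNA ends so that adapters can be ligated. A gel fraction of 15 to 45 nucleotides was sequenced, so full-length tRNA was not the target of the measurement.

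A tRNA carries its amino acid on a CCA triplet that an enzyme adds to the 3′ end, since nuclear tRNA genes of the mouse do not encode it. Stressed cells cleave mature tRNA in the anticodon loop, for which angiogenin is the best known nuclease, and leave a 5′ and a 3′ fragment. Shorter fragments arise from cuts in the D and T arms. Fragments of tRNA-Lys and tRNA-Val are among those described in stressed mammalian cells, and 5′ fragments of tRNA-Val have been linked to the control of translation in other organisms.

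Genes for the 5 species were looked up by name in the RefSeq gene table of GRCm38.p6, the assembly that corresponds to the mm10 build named by the submitters. The table listed 48 such genes on 14 chromosomes, 15 of them on chromosome 13. A GENCODE annotation of the same assembly placed 37 outside any other gene and 11 in introns, and none in an exon. tRNA-Lys-CTT had 24 genes on 12 chromosomes, tRNA-Val-CAC had 11 and tRNA-Val-AAC had 8. tRNA-Lys-TTT had only 2, n-TKttt23 at chr13:21907940-21908012 and n-TKttt22 at chr13:21971788-21971860. tRNA-Val-TAC had 3, n-TVtac1 at chr19:12011931-12012003, n-TVtac2 at chr19:12012266-12012338 and n-TVtac3 at chrX:160766110-160766182. These 5 genes all lie outside other annotated genes. The reads of a species cannot be assigned to 1 of its genes, and reads that fit several species had been divided among them. All 5′, 3′ and CCA end values of tRNA-Lys-CTT, tRNA-Lys-TTT and tRNA-Val-TAC were whole numbers in all 9 libraries (within 0.005 of a read). Values of tRNA-Val-AAC and tRNA-Val-CAC were mostly fractions, so some of their reads had been divided with other annotations. The remainders of tRNA-Lys-CTT and tRNA-Lys-TTT were whole numbers in 0 libraries and that of tRNA-Val-TAC in 3, so reads had been divided there too. Which annotations shared these reads is not recorded, and the values of the 5 species may not be independent. This holds most for tRNA-Val-AAC and tRNA-Val-CAC, whose CCA end reads ran closely together over the 9 libraries. They held 212 and 263 reads in old 1, and 1439 and 1741 reads in old 2. Calls of these 2 species may rest largely on the same reads and should not be counted as separate evidence.

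The libraries held between 12899427 and 19707803 clean reads, of which 83.7% to 87.3% fell in features. The 3 libraries that carry number 1 in their labels, 1 in each group, stood apart from those numbered 2 and 3, and results are given with and without them; the labels do not say what the number means. The 7 heart muscle microRNA markers had a summed level of 5179 to 17618 CPM (counts per 1000000 reads in features, scaled by TMM) across the 9 libraries, while the liver marker summed to at most 4.55 CPM, the neuron markers to at most 4.97 CPM and the epithelial markers to at most 4.79 CPM. Nearly all of the heart muscle sum came from mir-1a-1 and mir-1a-2, each at 2483 CPM or more, and mir-208a, which heart muscle transcribes from a myosin gene, lay at 15.8 to 32.6 CPM. Of the others, mir-499 reached at most 0.406 CPM and mir-208b at most 0.0965 CPM, and both were at 0 in some libraries. Endothelial (4178 to 10451 CPM) and smooth muscle (239 to 750 CPM) markers were present too, as a whole appendage would hold. In curcumin-treated libraries the heart muscle sum lay between 11903 and 17618 CPM, against 5179 to 13719 CPM in old and 6201 to 17075 CPM in young libraries. Leukocyte markers summed to 103 to 123 CPM in curcumin-treated and 53.6 to 97.3 CPM in old libraries, which do not overlap, and to 49.9 to 349 CPM in young ones. Red blood cell markers reached 244 CPM in 1 young library and stayed at or below 21.6 CPM in the other groups. The part of cell composition in the results was not tested, and in a bulk tissue fewer cells of a type and less RNA per cell cannot be told apart.

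Together the 5 species made up 0.275% to 0.628% of the clean reads of a library, and on average 2.40% of all nuclear tRNA reads. tRNA-Gly-GCC alone accounted for 79.3% of nuclear tRNA reads. tRNA-Lys-CTT was the most abundant of the 5, with 1.06% of nuclear tRNA reads, rank 5 among the 48 species with at least 1000 reads. tRNA-Val-CAC followed with 0.50% (rank 11), then tRNA-Lys-TTT with 0.32% (rank 15), tRNA-Val-AAC with 0.27% (rank 17) and tRNA-Val-TAC with 0.25% (rank 18). The last 3 did not separate: as shares of clean reads, tRNA-Lys-TTT ranged from 0.0362% to 0.0861%, tRNA-Val-AAC from 0.0315% to 0.0742% and tRNA-Val-TAC from 0.0296% to 0.0659%.

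The 2 tRNA-Lys species differed in the share of their reads annotated to the 5′ end. Of the reads of tRNA-Lys-TTT, 63.0% came from the 5′ end on average, and this share lay between 58.9% and 69.7% in the 9 libraries. Of the reads of tRNA-Lys-CTT only 15.6% did, between 10.9% and 18.7%, so the ranges did not overlap in any group. The bulk of tRNA-Lys-CTT, 80.2%, lay in the remainder, that is in fragments annotated to neither end, against 31.2% for tRNA-Lys-TTT. Where in the molecule the remainder reads lie was not examined, since it is only what is left once the annotated ends are subtracted. tRNA-Gly-GCC, a species known for 5′ fragments, had 2.14% of its reads in the 5′ end and 97.8% in the remainder. Both species carry lysine, and their anticodons differ in the first base. The shares are within a species, so they do not depend on how libraries were scaled.

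All 3 tRNA-Val species were rich in 5′ end reads, with 57.2% for tRNA-Val-AAC, 59.4% for tRNA-Val-CAC and 49.0% for tRNA-Val-TAC. The median over the 48 nuclear species was 12.7%, and the 4 species other than tRNA-Lys-CTT ranked 8 to 14 of 48 by this share, with tRNA-Lys-CTT at rank 22. CCA ends made up 13.2% of tRNA-Val-AAC, 9.04% of tRNA-Val-CAC and 8.98% of tRNA-Val-TAC. For tRNA-Lys-CTT and tRNA-Lys-TTT they made up 3.98% and 5.29%, against a median of 12.1% over the 48 species. Ends without CCA, the form a mature tRNA takes when the triplet is missing or trimmed, held between 0.19% (tRNA-Lys-CTT) and 1.78% (tRNA-Val-AAC) of a species. Wilson 95% intervals of these shares were at most 1.54 percentage points wide to either side in any library and describe the error of counting alone, because 2 reads may copy 1 molecule.

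**Figure D1:**
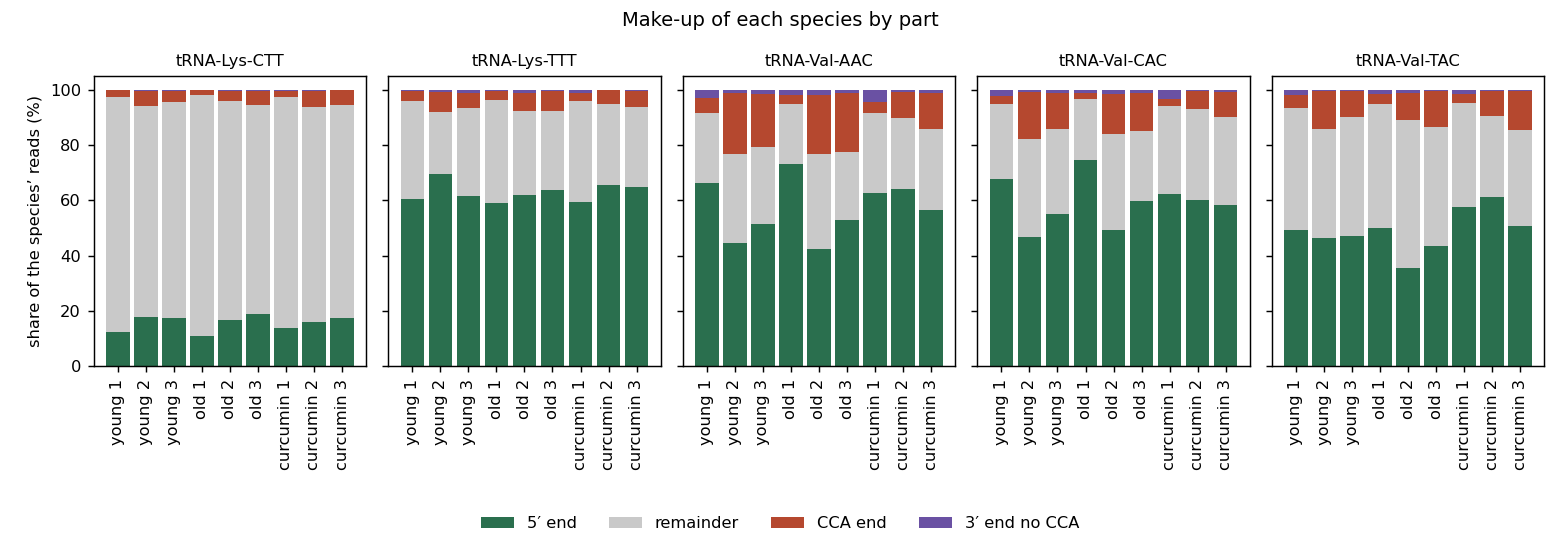
Share of each species' reads (%, vertical axis from 0 to 100) in its 4 parts, 1 stacked bar for each of the 9 libraries. The 5′ end share of tRNA-Lys-TTT (58.9% to 69.7%) lies above that of tRNA-Lys-CTT (10.9% to 18.7%) in all 9 libraries, and the CCA end band is narrowest in the 3 libraries numbered 1.

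The mitochondrial counterparts, which are other genes with the same anticodons, had a different make-up. Mitochondrial tRNA-Lys-TTT gave 12.4% of its reads from the 5′ end and 54.1% from CCA ends. Mitochondrial tRNA-Val-TAC gave 0.15% from the 5′ end and 64.0% from CCA ends. The 9 libraries of nuclear tRNA-Val-TAC, at 35.3% to 61.3% from the 5′ end, lay above all 9 of its mitochondrial counterpart, whose 5′ end share was at most 0.288%.

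Levels of the parts are given in CPM, which are not corrected for fragment length, so a value compares libraries and not parts. Of the 20 parts, 10 averaged at least 100 CPM over the 9 libraries: the 5′ ends and the remainders of all 5 species. The 5′ end of tRNA-Val-CAC was at 605, 337 and 402 CPM in young 1 to 3, 748, 464 and 526 CPM in old 1 to 3, and 943, 552 and 522 CPM in curcumin-treated 1 to 3. In each group its highest value was that of the library numbered 1, and the 3 groups overlapped.

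For tRNA-Lys-TTT the 5′ end stood at 251, 421 and 297 CPM in young mice, 278, 309 and 316 CPM in old mice and 476, 546 and 399 CPM in curcumin-treated mice. The 3 curcumin-treated values were all above the 3 old values, while young 2 lay above curcumin-treated 3. For tRNA-Lys-CTT it was 219, 307 and 328 CPM in young, 280, 335 and 309 CPM in old and 372, 309 and 310 CPM in curcumin-treated mice. It varied little, and all 3 groups overlapped.

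In tRNA-Val-AAC the 5′ end reached 281, 203 and 214 CPM in young, 346, 228 and 253 CPM in old and 481, 328 and 288 CPM in curcumin-treated mice. Every curcumin-treated value was above every young value, and the old values spanned the gap. The 5′ end of tRNA-Val-TAC was at 201, 207 and 228 CPM in young, 245, 188 and 193 CPM in old and 392, 292 and 175 CPM in curcumin-treated mice. Curcumin-treated mice held both the highest and the lowest of these 9 values.

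The remainder of tRNA-Lys-CTT was at 1501, 1341 and 1467 CPM in young, 2250, 1595 and 1253 CPM in old and 2301, 1532 and 1364 CPM in curcumin-treated mice. Old 1 and curcumin-treated 1 stood above the other 7 libraries. The remainder of tRNA-Lys-TTT was 147, 135 and 153 CPM in young, 176, 151 and 142 CPM in old and 291, 245 and 178 CPM in curcumin-treated mice. Here all 3 curcumin-treated values were above the other 6, although curcumin-treated 3 exceeded old 1 by little.

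The remainders of the tRNA-Val species were less regular. That of tRNA-Val-AAC was 109, 146 and 116 CPM in young, 103, 185 and 117.6 CPM in old and 223, 131 and 151 CPM in curcumin-treated mice. That of tRNA-Val-CAC was 241, 256 and 222 CPM in young, 225, 325 and 226 CPM in old and 482, 305 and 287 CPM in curcumin-treated mice. That of tRNA-Val-TAC was 180, 178 and 209 CPM in young, 220, 287 and 193 CPM in old and 258, 141 and 119 CPM in curcumin-treated mice. Curcumin-treated tRNA-Val-CAC lay above all young values, while tRNA-Val-TAC had its 2 lowest values in curcumin-treated 2 and 3.

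The other 10 parts were less abundant. The 5 CCA ends lay between 14.3 and 138 CPM over the 9 libraries. The 5 ends without CCA lay between 0.673 and 47.5 CPM and held between 8 and 803 reads in a library, so counting error is largest there.

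**Figure D2:**
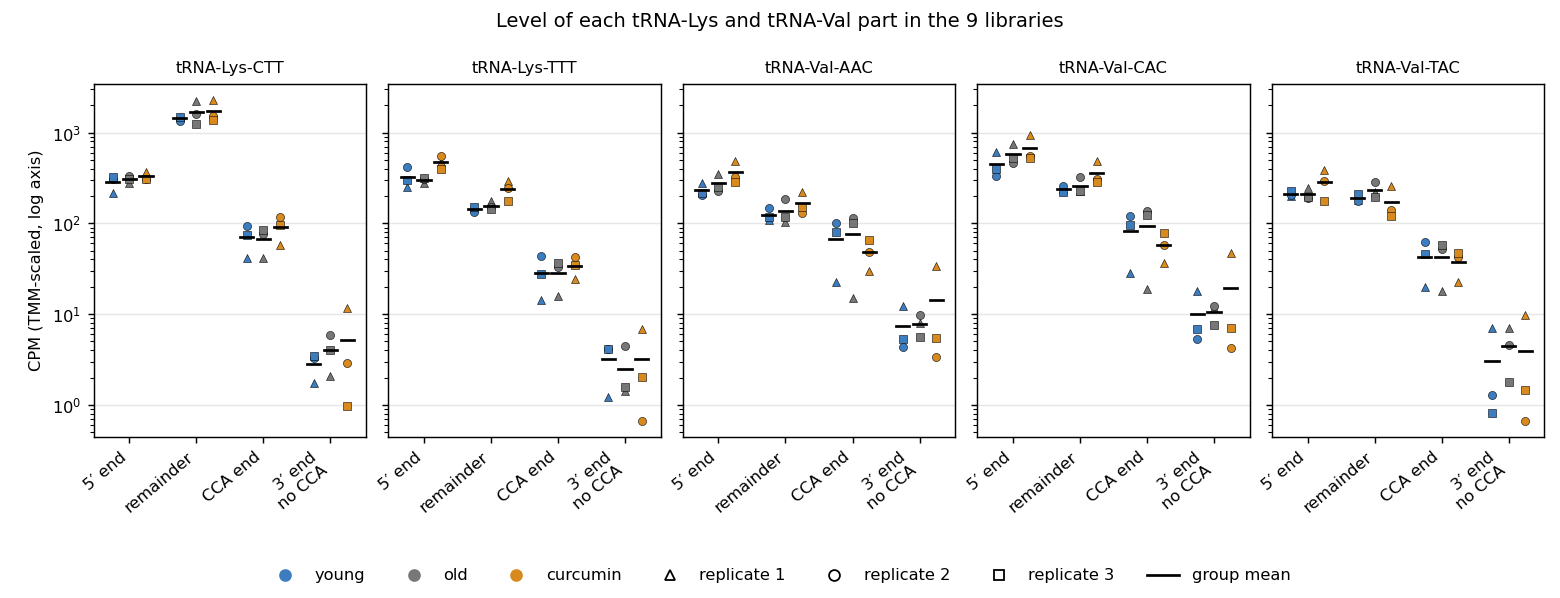
Level of each part in CPM (TMM-scaled, logarithmic vertical axis) for each of the 9 libraries, with 1 panel per species. Colour gives the group, the symbol gives the replicate number and black bars are group means. The 3 curcumin-treated libraries lie above the 3 old libraries for the 5′ end and the remainder of tRNA-Lys-TTT, and the triangles (number 1) are lowest among CCA ends.

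Old and young mice were compared first, since by their labels these groups differ in age alone. None of the 20 parts passed edgeR's quasi-likelihood test with Benjamini-Hochberg adjustment over all 520 features, and 0% of all features did. No part had an unadjusted p under 0.05 either, against 5 of 520 features (0.962%), and DESeq2 and limma-voom also called 0 features. No part separated old from young without overlap, where 4.62% of all features did. With the parts of a species summed, tRNA-Val-AAC stood at 472, 536 and 477 CPM in old and 425, 454 and 415 CPM in young mice. It was the only 1 of 48 nuclear species (2.08%) to be higher in old mice without overlap, and as a share of clean reads its groups overlapped. The sum of all tRNA-Val parts stood at 1965, 2008 and 1806 CPM in old and 1725, 1621 and 1627 CPM in young mice. That sum, too, overlapped between the groups as a share of clean reads. As a share of nuclear tRNA reads, tRNA-Lys-CTT stood at 0.992%, 1.01% and 1.22% in old and 0.918%, 0.952% and 0.983% in young mice, without overlap. How many of all nuclear species do so was not counted, and by summed CPM and as a share of clean reads its groups overlapped. The 3 parts with the smallest p were the 5′ end of tRNA-Val-CAC (log2 fold change 0.37, SE 0.33), the remainder of tRNA-Val-TAC (0.30, SE 0.33) and the remainder of tRNA-Lys-CTT (0.24, SE 0.28), each with an adjusted p of 0.999 in edgeR. Of the 20 differences 15 were positive, with a median log2 fold change of 0.11, against 235 of 520 positive and a median of -0.04 over all features.

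As a share of clean reads, tRNA-Lys took 0.191% ± 0.0343 (SD, n = 3) in young and 0.209% ± 0.0489 in old mice, with an exact two-sided permutation p of 0.6. tRNA-Val took 0.139% ± 0.0369 in young and 0.156% ± 0.0134 in old mice, with an exact permutation p of 0.5. With 3 against 3 libraries the smallest p this test can give is 0.1. The 5′ end share within tRNA-Lys was 26.4% ± 4.71 in young mice, and 24.4% ± 5.51 in old ones (exact permutation p = 0.6). Within tRNA-Val it was 53.7% ± 8.62 and 55.3% ± 12.2 (exact permutation p = 0.9). The old minus young difference was smaller than the SD of both groups except for the tRNA-Val share of clean reads, where 0.0164 percentage points exceeded the SD of the old group and not that of the young. In all 12 such tests were made, with adjusted p between 0.6 and 0.9.

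Curcumin-treated and old mice, which share the age of 18 months, were compared next. The parts of tRNA-Lys were higher in curcumin-treated mice in 8 of 8 cases by their point estimate and those of tRNA-Val in 7 of 12, but edgeR called none of the 20, and 0% of all features. Unadjusted p under 0.05 was found for 2 parts, against 21 of 520 features (4.04%), and DESeq2 and limma-voom called 0 features. The 5′ end of tRNA-Lys-TTT averaged 474 ± 73.3 CPM in curcumin-treated and 301 ± 20.4 CPM in old mice, a log2 fold change of 0.65 (SE 0.26) with an edgeR p of 0.0299 before and 0.917 after adjustment. Its remainder averaged 238 ± 57.1 against 156 ± 17.8 CPM, a log2 fold change of 0.61 (SE 0.26) with an edgeR p of 0.0446 before and 0.917 after adjustment. Next by p was the remainder of tRNA-Val-CAC, with a log2 fold change of 0.47 (SE 0.28) and the same adjusted p.

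The 2 tRNA-Lys-TTT parts were the only ones of the 20 in which all curcumin-treated libraries exceeded all old ones, and none was lower throughout. Of all 520 features, 6.15% were higher without overlap in this comparison and 6.73% lower. The median log2 fold change of the 20 parts was 0.35, with 0.41 for the 5′ ends, all 5 of them positive, and -0.18 for the 5 CCA ends, of which 2 were positive. Over all 520 features it was 0.08, over the other 165 nuclear tRNA parts -0.02, and over the other 43 nuclear 5′ ends 0.05. For the other 44 nuclear CCA ends it was -0.38, with 7 positive. Scaling to all clean reads in place of TMM raised the median of all features from 0.08 to 0.31 (383 of 520 positive in place of 294) and that of the 20 parts from 0.35 to 0.61.

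Several groups of other tRNAs were compared by their point estimates. Ends without CCA had a median log2 fold change of 0.38 in the 5 species described here, with 4 of 5 positive, and 0.54 in the other nuclear tRNAs, with 27 of 33 positive; without the libraries numbered 1 these became -1.19 with none positive and -0.70 with 3 positive. The 6 species best known for abundant or stress-induced 5′ fragments, tRNA-Gly-GCC, tRNA-Gly-CCC, tRNA-Glu-CTC, tRNA-Glu-TTC, tRNA-His-GTG and tRNA-Asp-GTC, had 5 of 24 parts positive, with a median of -0.35, and 1 of their 6 ends at the 5′ side was positive, with a median of -0.29. The 8 parts of mitochondrial tRNA-Lys-TTT and tRNA-Val-TAC had a median of 0.02, with 5 positive, and the 4 precursor tRNA entries a median of -0.14, with none positive. With clean-read totals 3 of the 4 precursor entries were positive (median 0.09), and 9 of the 24 parts and 3 of the 6 5′ ends of the 6 species were. edgeR called none of these features with all 9 libraries. Without the libraries numbered 1, all 24 parts of the 6 species were negative, with a median of -0.84, and 9 were called lower. Of the 165 nuclear tRNA parts outside the 5 species described here, these 24 among them, 130 were negative (median -0.47) and 17 were called lower. Over all features 7.51% were called lower. Of the 4 precursor entries 3 were positive (median 0.03) and none was called. In that fit 4 of the 33 other ends without CCA and 1 of the 8 mitochondrial parts were called lower. So were 6 of the 44 other CCA ends (median -0.62, 38 negative) and 5 of the 45 other remainders. Whether these lists differ from the 20 parts was not tested.

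As a share of clean reads, tRNA-Lys took 0.279% ± 0.0687 in curcumin-treated against 0.209% ± 0.0489 in old mice (exact permutation p = 0.2), and tRNA-Val took 0.211% ± 0.0687 against 0.156% ± 0.0134 (exact permutation p = 0.2). Within each replicate number the curcumin-treated library was the higher. The differences for tRNA-Lys were 0.0771, 0.106 and 0.0273 percentage points for numbers 1, 2 and 3. For tRNA-Val they were 0.115, 0.0507 and 0.000706 percentage points, so the libraries numbered 3 were nearly level. The mean difference for tRNA-Val was 0.0554 percentage points, and it was 0.0180 without curcumin-treated 1 and 0.0856 without curcumin-treated 3. For tRNA-Lys it was 0.0701, with 0.0384 without curcumin-treated 1 and 0.107 without curcumin-treated 3. At the level of a species, tRNA-Lys-TTT took 0.0772%, 0.0861% and 0.0530% of clean reads in curcumin-treated and 0.0411%, 0.0362% and 0.0413% in old libraries, which do not overlap. Nor did those of tRNA-Val-AAC, at 0.0742%, 0.0528% and 0.0441% against 0.0411%, 0.0390% and 0.0396%. How many of all nuclear species separate on this measure was not counted. By summed CPM tRNA-Lys-TTT was the only 1 of 48 nuclear species (2.08%) to be higher in curcumin-treated than in old mice without overlap. As a share of nuclear tRNA reads its groups overlapped, with curcumin-treated 1 at 0.308% and old 3 at 0.367%. The 5′ end share within tRNA-Lys was 28.1% ± 3.60 in curcumin-treated mice (exact permutation p = 0.5 against old) and that within tRNA-Val 59.7% ± 2.95 (p = 0.6 in the same exact test). For tRNA-Val the 3 species were not alike. In tRNA-Val-TAC the 5′ end share was 57.5%, 61.3% and 50.9% in curcumin-treated, 50.0%, 35.3% and 43.3% in old and 49.2%, 46.3% and 47.2% in young libraries. Every curcumin-treated value was above all old and all young values. Its remainder share was 37.8%, 29.6% and 34.8% in curcumin-treated and 39.7% to 54.0% in the other 6 libraries. These were the only 2 of the 20 part shares whose groups did not overlap, in either comparison. Over 48 nuclear species 3.12% of part shares did not overlap between curcumin-treated and old libraries and 8.33% between curcumin-treated and young ones, against 1.56% between old and young. The shares of single species were looked at after their values were seen and were not tested.

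Results of this comparison changed without the 3 libraries numbered 1, which left 2 against 2. In that fit edgeR called 73 of 519 features, 14.1%, with 34 higher (6.55%) and 39 lower (7.51%). No part of the 20 was called higher and 3 were called lower. These were the remainder of tRNA-Val-TAC (log2 fold change -0.88, SE 0.28, adjusted p = 0.0332 in edgeR), the CCA end of tRNA-Val-CAC (-0.93, SE 0.30, adjusted p = 0.0362) and that of tRNA-Val-AAC (-0.91, SE 0.31, adjusted p = 0.0449). The 2 CCA ends may rest largely on the same reads, so they are not independent calls. Over all the alternatives run, the adjusted p of these 3 parts reached 0.997, and this fit was the only one that called them. The 5′ end of tRNA-Lys-TTT kept a log2 fold change of 0.60 with an adjusted p of 0.109, and 9 of the 20 differences were positive, with a median of -0.07.

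The calls also depended on which RNAs set the scale. When nuclear tRNA parts alone were scaled and fitted, a choice made after seeing the data, edgeR called 0 of 187 parts with all 9 libraries. Without the libraries numbered 1 it called 20 of 186, or 10.8%, with 13 higher (6.99%) and 7 lower (3.76%), and 4 of the 20 parts were among the higher ones. They were the 5′ end (0.95, SE 0.23, adjusted p = 0.00264 in edgeR) and the remainder of tRNA-Lys-TTT (0.90, SE 0.23, adjusted p = 0.00354), the CCA end of tRNA-Lys-CTT (0.74, SE 0.22, adjusted p = 0.0177) and the 5′ end of tRNA-Val-AAC (0.71, SE 0.23, adjusted p = 0.0298). For the 5′ end of tRNA-Lys-TTT the log2 fold change was between 0.51 and 0.95 over 20 alternatives, 1 of which called it. Its adjusted p ran from 0.00264 to 0.996.

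**Figure D3:**
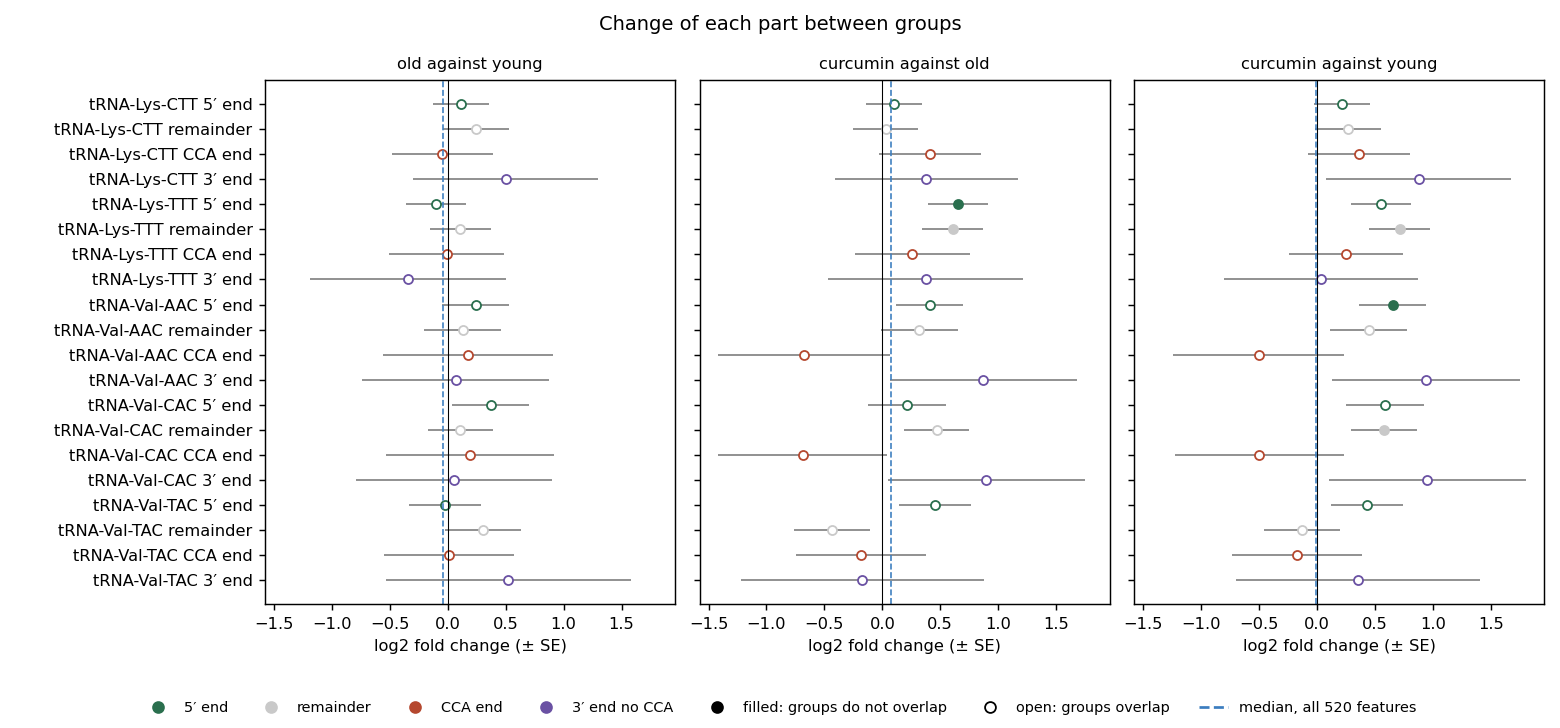
Log2 fold change of each of the 20 parts (horizontal axis, ± SE derived from the edgeR F statistic) in the 3 comparisons. Filled points mark parts whose groups do not overlap, and the dashed line is the median of all 520 features. The 5′ end and the remainder of tRNA-Lys-TTT are the filled points for curcumin-treated against old mice, and no part is filled for old against young mice.

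Curcumin-treated and young mice differ in both age and treatment. This comparison shares its libraries with the 2 above and is no independent evidence. edgeR called 0 of the 20 parts and 0% of all features. Unadjusted p under 0.05 was found for 2 parts against 19 of 520 features (3.65%), limma-voom called 0 features and DESeq2 called 1, which was not among the 20. The smallest p belonged to the remainder of tRNA-Lys-TTT (log2 fold change 0.71, SE 0.26), the 5′ end of tRNA-Val-AAC (0.65, SE 0.29) and the 5′ end of tRNA-Lys-TTT (0.55, SE 0.26), each with an adjusted p of 0.942 in edgeR. In 3 parts all curcumin-treated libraries exceeded all young ones, where 4.81% of all features did: the remainder of tRNA-Lys-TTT, the 5′ end of tRNA-Val-AAC and the remainder of tRNA-Val-CAC. By summed CPM 3 of 48 nuclear species (6.25%) were higher without overlap, and these were tRNA-Lys-TTT, tRNA-Val-AAC and tRNA-Val-CAC, of which tRNA-Lys-TTT alone did so as a share of clean reads. As a share of nuclear tRNA reads the groups of tRNA-Lys-TTT and tRNA-Val-TAC overlapped. Those of tRNA-Lys-CTT, tRNA-Val-AAC and tRNA-Val-CAC did not, nor did the sums of tRNA-Lys and of tRNA-Val, all higher in curcumin-treated mice. How many of all nuclear species separate on this measure was not counted. The median of the 20 parts was 0.40, with 16 positive, against -0.01 over all features.

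Without the libraries numbered 1, edgeR called 67 of 519 features (12.9%) in this comparison, 37 higher (7.13%) and 30 lower (5.78%), and none of the 20 parts. With nuclear tRNA parts alone and without those libraries, the choice made after seeing the data, it called 30 of 186 (16.1%), 21 of them higher (11.3%) and 9 lower (4.84%), and 6 of the 20 parts, all higher. These were the 5′ ends of tRNA-Val-AAC (log2 fold change 0.96), tRNA-Val-CAC (0.93) and tRNA-Lys-TTT (0.81), the remainders of tRNA-Lys-TTT (0.94) and tRNA-Val-CAC (0.71), and the CCA end of tRNA-Lys-CTT (0.75). The shares of clean reads differed by an exact permutation p of 0.2 for tRNA-Lys and 0.2 for tRNA-Val. Their 5′ end shares had exact permutation p of 0.7 and 0.4.

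A larger difference ran between replicate numbers. With group kept in the fit, the libraries numbered 1 differed from those numbered 2 and 3 in 120 of 520 features, or 23.1%, in edgeR, 56 of them higher (10.8%) and 64 lower (12.3%). Of the 20 parts 9 were called, 4 higher and 5 lower, and unadjusted p was under 0.05 for 40% of all features. DESeq2 and limma-voom, which called 31.2% and 25.4% of all features, also called 9 of the 20. The count of 9 fell to 4 without young 1 and to 5 without young 2. By part of the molecule, all 5 CCA ends fell, the 3 tRNA-Val ends without CCA rose, and of the 5′ ends 1 was called and of the remainders none. The calls depended on the scale: fitted on nuclear tRNA parts alone, 10 of the 20 were called higher and 4 lower, where 29.4% of the 187 parts were higher and 29.9% lower. In that fit 3 of the 5′ ends and 4 of the 5 remainders were called higher, and the CCA end of tRNA-Lys-CTT was not called. This contrast was chosen because these libraries were already known to stand apart.

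For tRNA-Val-CAC the CCA end was 28.1, 18.7 and 36.8 CPM in young 1, old 1 and curcumin-treated 1. It was 121 and 96.5 CPM in young 2 and 3, 138 and 123 CPM in old 2 and 3, and 58.0 and 79.1 CPM in curcumin-treated 2 and 3. The libraries numbered 1 did not overlap the others, and the log2 fold change was -1.81 (SE 0.37, adjusted p = 0.0107 in edgeR). The CCA end of tRNA-Val-AAC fell by 1.85 on the log2 scale (SE 0.37, adjusted p = 0.0106), and that of tRNA-Val-TAC fell by 1.34 (SE 0.26, adjusted p = 0.00878). The CCA ends of the tRNA-Lys species changed less, with -1.03 for tRNA-Lys-TTT (SE 0.27, adjusted p = 0.0231) and -0.95 for tRNA-Lys-CTT (SE 0.24, adjusted p = 0.0207); whether they differ from tRNA-Val was not tested. All 5 CCA ends were lower in the libraries numbered 1 without overlap, where 12.3% of all features were. Those of tRNA-Val-AAC and tRNA-Val-CAC may rest largely on the same reads and are not independent of each other.

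Ends without CCA went the other way. That of tRNA-Val-TAC was 6.99, 7.05 and 9.69 CPM in the libraries numbered 1 and 0.673 to 4.52 CPM in the other 6, a log2 fold change of 2.41 (SE 0.47, adjusted p = 0.00878 in edgeR). That of tRNA-Val-CAC rose by 1.77 (SE 0.47, adjusted p = 0.0231) and that of tRNA-Val-AAC by 1.60 (SE 0.47, adjusted p = 0.0349), although for both old 1 lay within the range of the other libraries. For both, curcumin-treated 1 stood far above the rest, at 47.5 and 33.8 CPM against 17.9 and 12.4 CPM in young 1, and without it the log2 fold changes were 0.93 and 0.75, of which the tRNA-Val-AAC value was no longer called. The 2 tRNA-Lys ends without CCA had log2 fold changes of 0.40 (SE 0.73) and 0.12 (SE 0.80) and were not called. The 5′ end of tRNA-Val-CAC rose by 0.71 (SE 0.18, adjusted p = 0.0207), without overlap. Over the alternatives run, the CCA ends of all 3 tRNA-Val species and the end without CCA of tRNA-Val-TAC were called in every fit of separate parts that tested them. The adjusted p of the other 5 calls rose to between 0.0650 and 0.116 in at least 1 alternative.

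Other nuclear tRNAs also had lower CCA ends and higher ends without CCA in these libraries. Of the other 44 CCA ends, 35 were called lower and none higher, with a median log2 fold change of -1.30, beside -1.34 for the 5 described here. Of the other 33 ends without CCA, 8 were called higher and none lower, with a median of 1.14. Among 5′ ends the other 43 species had a median of -0.48, with 3 called higher and 4 lower, whereas the 5 described here had a median of 0.35. Remainders of the other 45 species had a median of -0.40, with 32 negative, against 0.26 here, with 1 of 5 negative. The differences between these medians were not tested. Among mitochondrial tRNA-Lys-TTT and tRNA-Val-TAC parts, 2 were called higher and 2 lower.

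The ratio of 5′ end to CCA end reads shows the difference without any scaling between libraries. For tRNA-Val it was 15.4, 25.8 and 20.3 in young 1, old 1 and curcumin-treated 1 and 2.64 to 7.85 in the other 6 libraries. For tRNA-Lys it was 8.37, 9.71 and 10.3 in the libraries numbered 1 and 5.14 to 6.07 in the others. Neither pair of ranges overlapped. The number 1 libraries also had 20.2% to 25.1% of their clean reads in nuclear tRNA, against 11.3% to 15.2% in the others, and 72.2% to 73.7% of clean reads matched the genome, against 65.0% to 68.3%. The part of these library properties in the results was not tested.

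**Figure D4:**
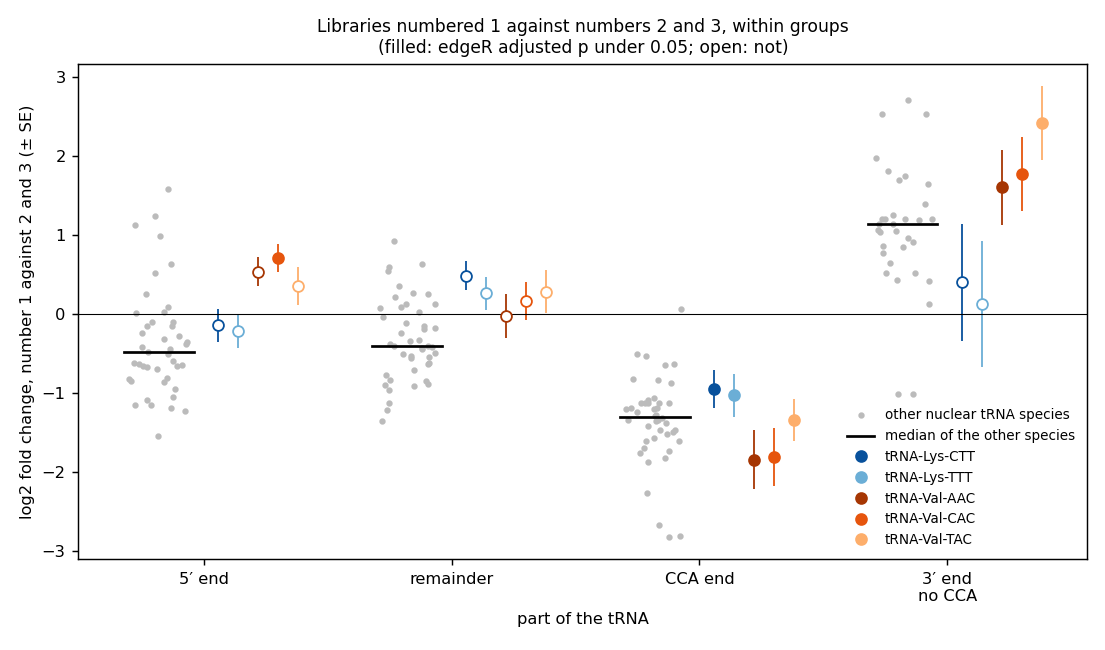
Log2 fold change of libraries numbered 1 against those numbered 2 and 3, with group in the fit (vertical axis, ± SE derived from the edgeR F statistic), by part of the tRNA. Grey points are other nuclear tRNA species with their median as a bar, coloured points are the 5 species, and filled points passed the adjusted p of 0.05. All 5 CCA ends are filled and below 0, and the 3 filled ends without CCA belong to tRNA-Val.

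Reads that end in CCA also differed between species in whether they matched the genome; this share was not compared between groups. Of the CCA end reads of tRNA-Val-AAC 0.163% did, and of those of tRNA-Val-CAC 0.160%. For tRNA-Val-TAC it was 44.6% (34.7% to 55.4% over the 9 libraries), for tRNA-Lys-TTT 81.4% (69.2% to 93.8%) and for tRNA-Lys-CTT 99.9%. All 5′ end reads of the 5 species matched the genome. Counting only genome-matched reads would therefore remove nearly all CCA ends of 2 tRNA-Val species and keep those of tRNA-Lys-CTT.

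The features whose levels ran most like these species over the 9 libraries were other nuclear tRNA parts. For summed tRNA-Lys they were the tRNA-Leu-CAA end without CCA (Pearson r of log2 CPM 0.812), the tRNA-Ser-CGA end without CCA (0.778) and the tRNA-Gly-CCC remainder (0.742). For summed tRNA-Val they were the tRNA-Gln-TTG 5′ end (0.899), the tRNA-Gln-CTG end without CCA (0.875) and the tRNA-Leu-CAA end without CCA (0.870). These are the highest of 496 features compared, over 9 libraries that include the 3 numbered 1, and all of these parts come from the same libraries and share their scaling.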

How the data were processed

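Per the labels' protocols, RNA was AlkB- and kinase-treated, cut from a gel at 15 to 45 nucleotides, ligated to QIAseq miRNA adapters and read over 75 cycles from 1 end. The submitters' processing notes name cutadapt 2.5 and mm10. Which tool annotated reads, and whether molecular identifiers were used, is not stated in the sources used here. The deposited values are expected counts per annotation, with shared reads divided and no normalization by the authors. A species' row includes its ends, which were subtracted to give the remainder. Counts were rounded. All 9 libraries entered 1 fit of edgeR 4.0.16 (filterByExpr, TMM, robust quasi-likelihood, Benjamini-Hochberg over 520 features, threshold 0.05) in R 4.3.3. The test in edgeR gives no SE, so each SE shown is the absolute log2 fold change divided by the square root of the F statistic. DESeq2 1.42.0, limma-voom 3.58.1, other scalings, no filter, a replicate block and omitted libraries were alternatives. Shares were compared by exact permutation in scipy 1.17.1. The fit was tested on simulated counts for curcumin against old alone. The simulation drew features independently and held no difference between replicate numbers. It therefore does not show how the fit behaves with the difference of the libraries numbered 1. CPM per library is given for parts with a mean of at least 100 CPM, and log2 fold changes for parts that pass or, where fewer than 3 pass, for the 3 smallest p; other parts named for their groups or for calls under an alternative were chosen after their values were seen. The members and lists were chosen with earlier results of these data known. Replicates are 3 mice per group by the design text, and p-values measure the spread between these libraries. Wilson 95% half-widths were at most 0.00371 percentage points for shares of clean reads.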

Additional observations from a re-analysis of the deposited data

How the results depend on the processing

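Across all alternatives, 184 values of the main results kept their direction or call, 7 moved and 9 turned. The 12 differences in shares were judged by direction alone. Their replicate block entries repeat the main difference, so these entries could not turn. For single named parts 296 kept their direction and call, 20 lost and 5 gained a call and 1 turned. The 2 fits that called parts between groups are without the 3 libraries numbered 1 (curcumin against old, 3 parts) and nuclear tRNA parts alone without them, chosen after seeing the data (4 parts for curcumin against old, 6 for curcumin against young). For the libraries numbered 1, the count of 9 parts became 14 with nuclear tRNA parts alone. The fit on the summed reads of each species holds no separate parts, so it gives no count to set beside these. Leaving out 1 library gave 4 to 10 parts, with 4 without young 1 and 5 without young 2. It gave 0 parts in each comparison of groups.

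Differences of old minus young for tRNA-Lys went from -0.010 to 0.037 percentage points of clean reads when 1 library was left out, turning without old 1. The 5′ end share of tRNA-Lys changed by -4.42 to 1.00 percentage points in old against young, turning without old 1 and without young 2, and was 0.157 higher with 5′ and CCA end reads as the denominator. In curcumin against young it changed by -0.678 to 4.03, turning without young 1. For tRNA-Val the 5′ end share changed by -4.82 to 7.34 in old against young, turning without old 1 and without young 2, and was -0.131 without the libraries numbered 1. In curcumin against old it changed by -1.28 to 10.9, turning without old 2. The remainder of tRNA-Lys-CTT, old against young, went from -0.033 to 0.406 (log2) when 1 library was left out, turning without old 1. The cause of these changes was not tested.

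The replicate block left 0 parts called in each comparison of groups. Of 9 pairs of libraries with the same number, 8 had deviations correlated above 0.1, with a range from -0.073 to 0.806. Pairs with different numbers ranged from -0.726 to 0.543, and 6 of 9 libraries correlated best with their own number. Because 1 pair with the same number fell below 0.1, the numbers were not taken as a pairing in the design, and the block was kept as an alternative. What they mark is not given. Depth limits the ends without CCA, which had as few as 8 reads.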
